A study of Mus musculus with 18 samples.

Results

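Abcg2, Abtb2, Nr6a1os, Nr6a1, Adamts6, Slc9a9, Rnf220 and Ttc23 are 8 of the 55335 genes counted in nuclei of the embryonic mouse forebrain, and they were chosen by their higher RNA levels in neurons of Myt1l knockouts (KO) in earlier results of these data. The choice used the contrast of KO with wild type (WT) in neurons, so the KO and WT values of these genes in neurons are given as a description, without a test, in each contrast they enter. All animals were E14 embryos of the C57BL/6 Myt1l S710fsX line, in which a frameshift mutation truncates the reading frame of Myt1l. WT embryos carried no mutant allele, heterozygotes (Het) carried the mutation on 1 of the 2 alleles, and KO embryos were homozygous for it in every cell, so no cell type was targeted and a change that arose in a cell type cannot be told apart from one that began elsewhere in the embryo. Each genotype had 3 embryos, and each embryo was read as a pair of libraries, from run 1 and run 2, which gave 18 libraries from 9 animals. Nuclei came from dissected, flash-frozen forebrains, and the sexes were mixed. In whole tissue of this kind each level below belongs to a class of nuclei, and a class may hold different mixtures of subtypes in different animals.

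The label under which the genes were gathered, genes raised in KO across neuron types, held for only some of them. Nr6a1os, Abcg2, Adamts6, Abtb2 and Slc9a9 were higher in all 3 KO animals than in all 3 WT animals in both excitatory and inhibitory neurons. Ttc23 did so in excitatory neurons alone. In inhibitory neurons its 3 KO animals all lay below the 3 WT animals, by less than the SE of the fit over 9 animals. The 3 KO values of Nr6a1 overlapped those of WT in both of these classes. Rnf220 was at the WT level in excitatory neurons, and in inhibitory neurons all its KO animals lay below all WT animals. That difference was smaller than its SE, but the fit over 9 animals included a Het animal at 89.8 CPM. The share of all genes with KO wholly below WT was not computed. Rnf220 was higher in KO only in Cajal-Retzius cells among the named neuron classes.

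MYT1L is a zinc finger transcription factor of neurons that is best known for silencing genes of progenitors and of other lineages while a neuron matures, and its DNA-binding domains recognise a core of AAGTT. Radial glia divide along the ventricle and, directly or through intermediate progenitors, give rise to the excitatory neurons of the cortex, whereas inhibitory neurons come from progenitors of the ganglionic eminences. Cajal-Retzius cells are early neurons of the outermost cortical layer that secrete reelin. The 8 genes have no common pathway. Abcg2 is an ATP-driven efflux pump for drugs and porphyrins, and Slc9a9 is a sodium-proton exchanger of endosomes. Adamts6 is a secreted metalloprotease that acts on the extracellular matrix. Nr6a1 is an orphan nuclear receptor that shuts off pluripotency genes in the early embryo, and Nr6a1os is a noncoding RNA from its opposite strand. Rnf220 is a ubiquitin ligase that acts on GLI factors of the hedgehog pathway. Ttc23 is a protein of the primary cilium that binds the EVC and EVC2 proteins of hedgehog signalling. Abtb2 is a protein with ankyrin repeats and BTB domains.

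After filtering, 193778 of 261143 barcodes were kept, and the libraries had medians of 1875 to 4108 unique molecular identifiers (UMIs) per nucleus. There were 152 barcodes shared between the runs of an animal and 1686 shared between animals, and all were kept as separate nuclei. Clusters were named from marker lists, with names that stand for marker patterns (excitatory neuron-like and so on, written without the ending from here on). This gave 32352 radial glia, 13361 excitatory intermediate progenitors, 7747 inhibitory progenitors, 59429 excitatory neurons in 5 clusters, 52150 inhibitory neurons in 9 clusters, 1979 Cajal-Retzius cells, 324 microglia and macrophages and 344 oligodendrocyte progenitors, the last with as few as 17 in an animal and therefore not tested, while 26092 nuclei stayed unnamed. The genotype tag of run 1 reads WT for all 9 libraries of that run, and genotypes were therefore taken from the titles. Levels are CPM, the UMIs of a gene in an animal's nuclei of a class scaled to a fixed total, a unit that includes the length of a gene's body in nuclear RNA, so that levels are compared between cell types and animals and not between genes. Myt1l transcripts remained present in KO, as a frameshift allows, so they do not check the genotype labels. Its RNA was 1899, 2149 and 2077 CPM in excitatory neurons of the 3 WT animals, 2155, 2368 and 2339 CPM in Het animals and 2441, 2679 and 2522 CPM in KO. The log2 difference between KO and WT was 0.34 ± 0.07 (SE from the fit over 9 animals, 3 per genotype). Its adjusted p was 0.0538 in edgeR's quasi-likelihood test, and 5.6e-05 once the replicate number entered as a block. In inhibitory neurons Myt1l differed by 0.30 ± 0.08 (edgeR adjusted p = 0.549, with the block 0.0171). In Cajal-Retzius cells the means were 1402 CPM in WT, 1533 in Het animals and 1569 in KO, a difference that did not pass (edgeR adjusted p = 0.613), and radial glia held 33.1 to 82.3 CPM across the 9 animals.

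In WT animals the genes fell, over the 7 tested classes, into groups by the cell type with their highest level. Adamts6, Nr6a1os and Ttc23 were highest in radial glia, with the ranges of Nr6a1os in radial glia and microglia overlapping. Adamts6 measured 382 ± 12.8 CPM (mean ± SD, n = 3) in radial glia, 215 ± 12.3 in excitatory intermediate progenitors, 65.0 ± 6.6 in inhibitory progenitors, 41.6 ± 5.9 in Cajal-Retzius cells, 20.98 ± 2.2 in inhibitory neurons and 18.8 ± 1.6 in excitatory neurons. The ranges of the WT animals were apart between radial glia and intermediate progenitors and overlapped between the neuron classes at the low end. Nr6a1os went from 208 ± 9.9 CPM in radial glia to 66.4 ± 7.2 in excitatory intermediate progenitors and 23.4 ± 1.4 in excitatory neurons, and on the inhibitory side from 81.7 ± 9.7 in progenitors to 51.2 ± 1.4 in neurons. Ttc23 went from 94.1 ± 3.7 CPM in radial glia and 81.1 ± 1.0 in excitatory intermediate progenitors to 8.7 ± 0.84 in excitatory and 7.5 ± 0.10 in inhibitory neurons. Nr6a1os was thus less confined to progenitors than the other two, and inhibitory neurons gave 20.2% of its UMIs.

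Abtb2 and Rnf220 were instead highest in Cajal-Retzius cells among these 7 classes, at 120 ± 16.2 CPM and 176 ± 12.3 CPM, above the other 6 without overlap. Abtb2 was higher still in the few nuclei named oligodendrocyte progenitors, after the precursors of myelinating glia. It measured 272, 336 and 391 CPM there in WT, from 83 UMIs in all. The KO values were 155, 295 and 271 CPM, and the genotypes overlapped. Those nuclei also had more Abcg2 (99.6 ± 24.4 CPM) and Slc9a9 (207 ± 39.4 CPM) in WT than any neuron class. The 8 genes all overlapped there between KO and WT. The leading genes of this class mixed Pdgfra and Cspg4 with Ranbp3l, Col3a1 and Col1a2. At the lower clustering resolution no nuclei took its name, and 103 nuclei led by Ranbp3l, Col3a1 and Col1a2 were named mural and fibroblast. These levels therefore cannot be credited to oligodendrocyte progenitors alone. Abtb2 ranged elsewhere from 15.5 ± 2.8 CPM in excitatory intermediate progenitors to 47.3 ± 1.9 in radial glia, and was at 0 in all WT microglia. Rnf220 lay between 32.0 ± 0.84 CPM in excitatory neurons and 51.7 ± 6.6 in inhibitory progenitors in the remaining neural classes. Slc9a9 was highest in microglia, at 1336 ± 246 CPM, and among the neurons and their progenitors it was highest in inhibitory neurons (77.5 ± 1.9), inhibitory progenitors (71.7 ± 11.9) and Cajal-Retzius cells (67.3 ± 3.4), where the range of the progenitors overlapped both others and those of the neurons were apart, with 11.8 ± 1.4 in excitatory neurons at the other end. Abcg2 and Nr6a1 also had their highest mean in microglia, where the smallest animal had 21 nuclei. For Nr6a1 this rested on run 2, since in run 1 alone microglia had 17.1 CPM and excitatory intermediate progenitors had its highest mean. In the other 6 classes Abcg2 had means within 19.8 to 28.98 CPM except in inhibitory neurons (11.3 ± 1.0), and Nr6a1 was the most even of the 8, from 98.8 ± 21.9 CPM in Cajal-Retzius cells to 144 ± 1.2 in radial glia, with overlapping neighbours at most steps. Of all UMIs of Adamts6, 56.6% came from radial glia, against 6.76% from excitatory neurons, while excitatory neurons gave 45.9% of those of Abcg2 and inhibitory neurons 50.6% of those of Slc9a9.

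**Figure D1:**
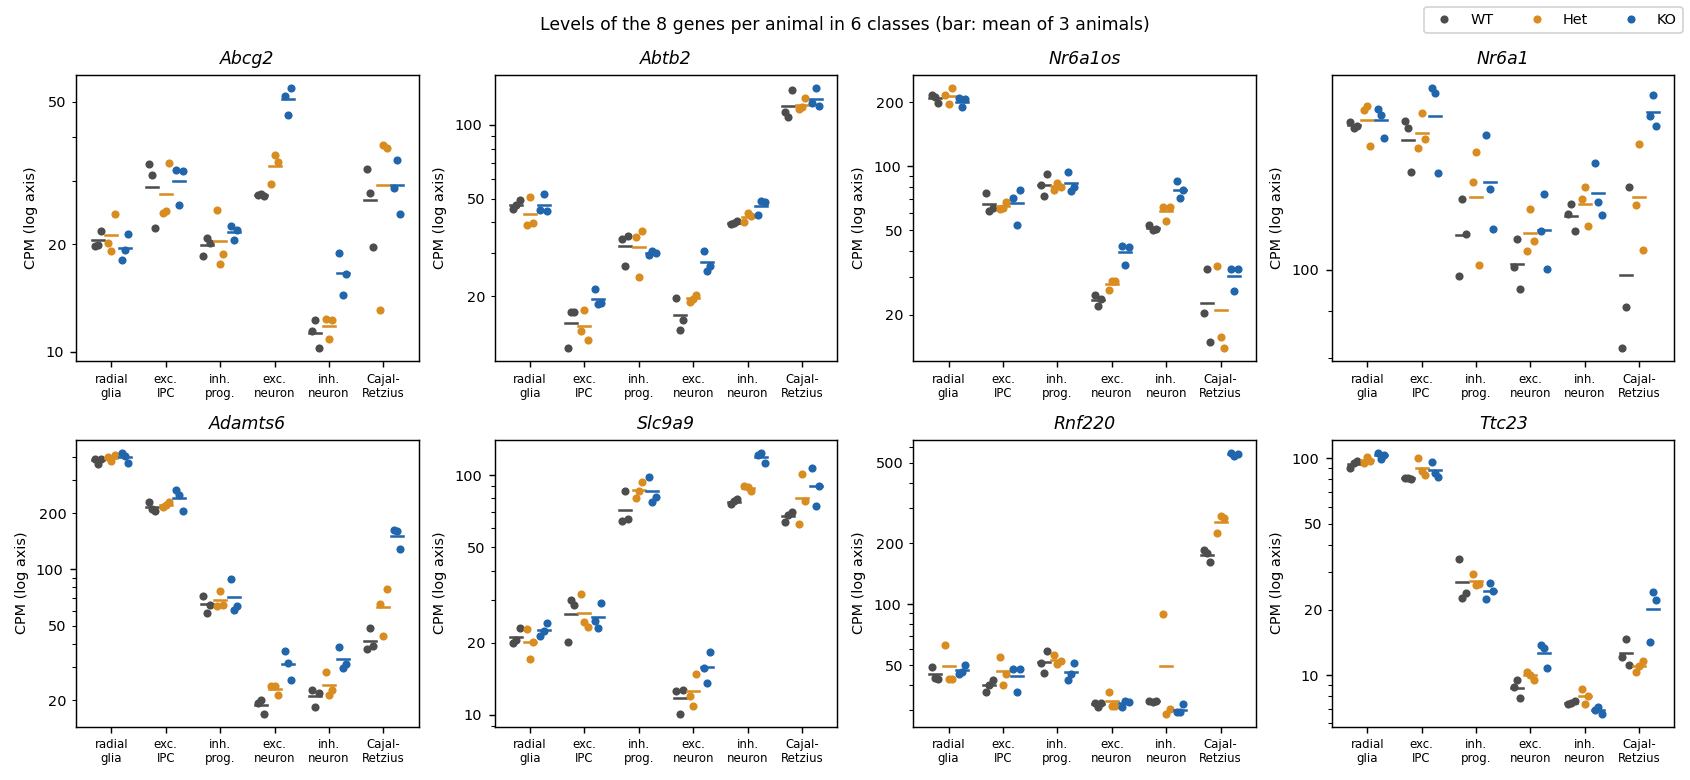
Level of each of the 8 genes (CPM, log axis, 1 panel per gene) in 6 cell classes, with a point for every animal coloured by genotype and a bar at the mean of 3 animals. Adamts6, Nr6a1os and Ttc23 sit highest in radial glia (382, 208 and 94.1 CPM in WT), and the single high Het point of Rnf220 in inhibitory neurons is Het 1 (89.8 CPM).

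Excitatory neurons had the widest set of genes with higher KO levels, 6 of the 8. The most raised was Abcg2, with 27.4, 27.7 and 27.3 CPM in the WT animals, 29.6, 35.6 and 34.0 in Het animals and 52.0, 46.0 and 54.9 in KO. All KO animals lay above all Het animals, and all Het animals above all WT animals. Its log2 difference between KO and WT was 0.92 ± 0.08 (SE). Nr6a1os had 24.7, 21.9 and 23.6 CPM in WT, 26.2, 28.8 and 28.9 in Het animals and 42.1, 34.2 and 41.7 in KO, again in 3 separate groups, with a KO difference of 0.77 ± 0.09. Adamts6 followed the same order with 19.4, 20.1 and 17.0 CPM in WT, 23.7, 23.7 and 21.2 in Het animals and 36.8, 31.7 and 25.6 in KO, a difference of 0.75 ± 0.13. Abtb2 measured 19.6, 14.6 and 15.9 CPM in WT, 18.9, 19.5 and 20.3 in Het animals and 30.4, 25.2 and 26.6 in KO. For Abtb2 the KO animals stood apart by 0.74 ± 0.10, but Het overlapped WT.

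The differences of the other 4 genes in excitatory neurons were smaller. Ttc23 ranged over 7.84 to 9.51 CPM in WT, 9.50 to 10.4 in Het animals and 10.8 to 13.7 in KO (0.54 ± 0.12). Slc9a9, which is scarce in these cells, had a KO range of 13.6 to 18.2 CPM above the WT range of 10.1 to 12.7 (0.46 ± 0.13), and its Het animals spread across both. Nr6a1 overlapped, with 95.4 to 108 CPM in WT and 100.3 to 121 in KO (0.15 ± 0.09), although its antisense RNA Nr6a1os differed in the same nuclei. Rnf220 did not move from its WT mean of 32.0 CPM beyond the spread (KO mean 32.4, 0.04 ± 0.08). As background, 123 of 19368 genes tested in excitatory neurons were called between KO and WT (0.635% in either direction and 0.403% higher in KO), 1047 were with the block, and 7.26% of all genes had all 3 KO animals above all 3 WT animals, as 6 of these 8 did. A call means a Benjamini-Hochberg adjusted p under 0.05 and a log2 difference beyond 0.2. The counts of all genes called, here and in the other neuron classes, include the 8 themselves. Since the genes were picked for this contrast, their share was not read against the background.

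In inhibitory neurons 5 of the 8 had all KO animals above all WT animals. Slc9a9, which is abundant there, had 75.4, 77.6 and 79.3 CPM in WT, 90.2, 89.0 and 85.5 in Het animals and 121, 124 and 112 in KO. The 3 genotypes did not overlap, and the KO difference was 0.65 ± 0.07. Nr6a1os was at 52.7, 50.05 and 50.9 CPM in WT, 64.5, 55.1 and 64.5 in Het animals and 84.8, 70.6 and 77.0 in KO, also without overlap (0.62 ± 0.08). Adamts6 had a WT range of 18.5 to 22.6 CPM, a Het range of 21.4 to 28.1 and a KO range of 29.8 to 38.3, with Het and WT overlapping (0.68 ± 0.12). Abcg2 ranged over 10.2 to 12.2 CPM in WT, 10.8 to 12.4 in Het animals and 14.4 to 18.9 in KO (0.56 ± 0.12). Abtb2 differed least of the 5, at 39.2 to 40.5 CPM in WT and 43.0 to 49.0 in KO (0.26 ± 0.08). Nr6a1 overlapped again (0.11 ± 0.08). Ttc23 lay slightly lower in KO (6.66 to 7.10 CPM) than in WT (7.40 to 7.59), and so did Rnf220 (29.1 to 32.0 against 32.8 to 33.3). Both fitted differences were smaller than their SE (-0.09 ± 0.11 and -0.11 ± 0.33), and KO overlapped WT in each run alone. Of 18837 genes tested 2 were called (0.0106%) and 124 with the block, and 4.28% of genes had KO wholly above WT.

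Cajal-Retzius cells differed from both. Rnf220 measured 186, 178 and 162 CPM in WT, 225, 273 and 267 in Het animals and 561, 539 and 556 in KO. All 3 genotypes were apart, and the KO mean was 3.14 times the WT mean, the largest ratio for any of the 8 in a named neuron class after that of Adamts6. Adamts6 had 37.7, 48.4 and 38.8 CPM in WT, 65.6, 44.1 and 78.6 in Het animals and 161, 160 and 129 in KO, a ratio of 3.60. Fitted log2 differences were 1.65 ± 0.11 for Rnf220 and 1.84 ± 0.20 for Adamts6. Nr6a1, which overlapped in the other neurons, had KO values of 148, 156 and 144 CPM above the WT values of 82.0, 90.9 and 124 (0.62 ± 0.16), and Slc9a9 had 107, 74.2 and 89.7 CPM in KO above 63.4, 68.4 and 69.9 in WT (0.44 ± 0.19). The remaining members, Abcg2, Abtb2, Nr6a1os and Ttc23, overlapped between KO and WT. Abtb2 was at 120 CPM in WT and 128 in KO, the tested class of its highest level and the one of its smallest KO difference among neurons (0.09 ± 0.14). The class had 142 to 298 nuclei per animal, and low counts limit it: over 3 animals Nr6a1os had 45.5 UMIs in WT, 48.0 in Het animals and 74.8 in KO. Of 8765 genes tested 21 were called (0.24%), 68 were with the block, and 7.01% had KO wholly above WT, as 4 of these 8 did.

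**Figure D2:**
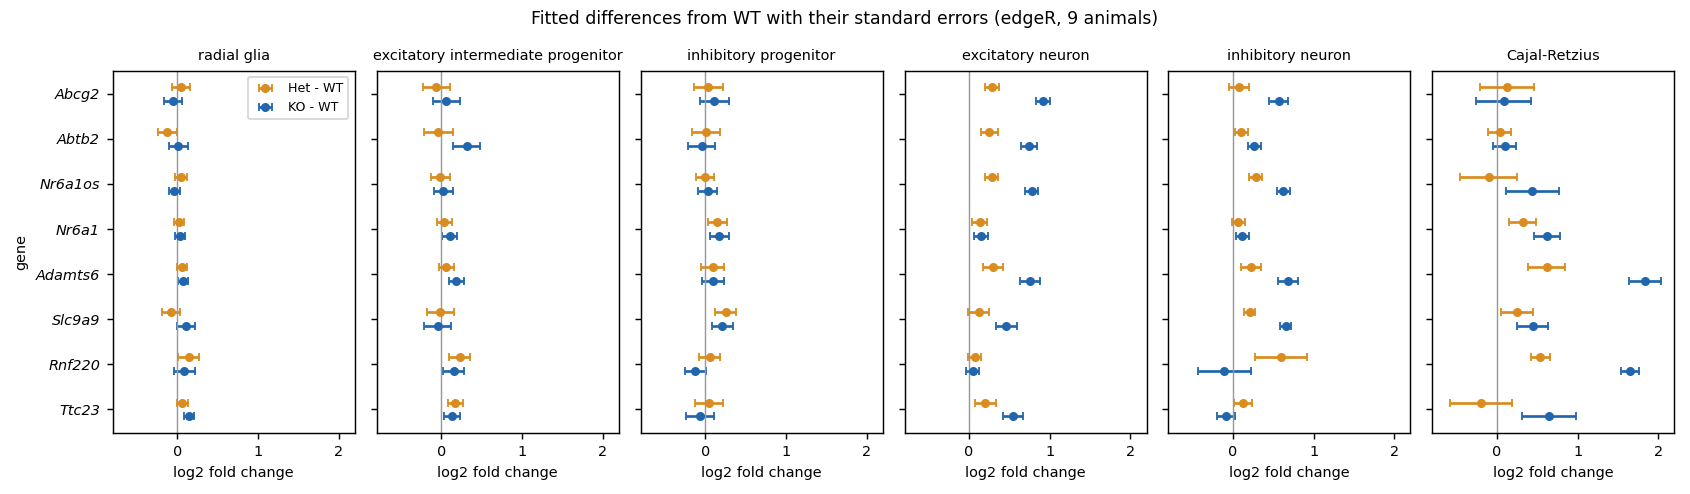
Log2 fold change from WT (x axis) with its standard error for Het and KO, for each gene (y axis) in 6 cell classes (panels), from the edgeR fit over 9 animals. In excitatory neurons the KO values run from 0.04 (Rnf220) to 0.92 (Abcg2), and in Cajal-Retzius cells Adamts6 (1.84) and Rnf220 (1.65) have the highest.

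The ratio of KO to WT was also taken within each run. In excitatory neurons Abcg2 was 1.73 times WT in run 1 and 1.90 times in run 2, Nr6a1os 1.5 and 1.74 times, and Abtb2 1.51 and 1.69 times, with KO wholly above WT in each run. For Slc9a9 in inhibitory neurons the ratios were 1.55 and 1.53, and for Nr6a1os 1.30 and 1.59, also without overlap in either run. Adamts6 was less even, at 1.21 in run 1 against 1.84 in run 2 in excitatory neurons and at 1.02 against 1.80 in inhibitory neurons, with overlap in run 1 in both classes. Abtb2 in inhibitory neurons had 1.01 in run 1 and 1.23 in run 2. Slc9a9 (1.14 and 1.42) and Ttc23 (1.29 and 1.47) in excitatory neurons and Abcg2 (1.23 and 1.55) in inhibitory neurons also overlapped in run 1 and not in run 2. In Cajal-Retzius cells Rnf220 (6.22 and 2.82) and Adamts6 (2.41 and 4.06) had KO above WT without overlap in each run, although run 1 had as few as 10 of these nuclei in an animal. Nr6a1 there had a ratio of 0.975 in run 1 and 1.67 in run 2, with overlap in run 1, and Slc9a9 had 1.72 and 1.29, with overlap in run 2. Run 1 held fewer nuclei throughout, between 3185 and 5554 per library against 11343 to 21504 in run 2.

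Within excitatory neurons the ratios of KO to WT ranged widely among the 5 clusters, and differences between clusters were not tested. Cluster 19, led by Rgs6 and Hs3st4 with 7 of the deep-layer markers detected, had the highest ratios of KO to WT for Adamts6 (2.73, from 7.40 to 20.2 CPM), Nr6a1os (2.59, from 8.80 to 22.8 CPM), Ttc23 (2.34, from 5.72 to 13.4 CPM) and Abtb2 (1.96). Abcg2 had its highest ratio in cluster 9, led by Tfap2d (2.53, from 16.3 to 41.2 CPM). Cluster 25 was led by Itga4, Unc5d and Svet1, with 5 of the migrating-neuron markers detected. It had the lowest ratios of the 5 clusters for Abcg2 (1.04), Ttc23 (1.01), Abtb2 (1.13) and Adamts6 (1.19). Of the 8 genes Nr6a1os alone had all KO animals above all WT animals there (46.3 to 59.2 against 37.0 to 44.6 CPM). The share of all genes that did so was not computed within this cluster. In WT animals Adamts6 was at 54.9 CPM in cluster 25 against 7.40 to 14.1 in the other 4 clusters, and Ttc23 at 20.01 against 5.72 to 6.67, so for these 2 genes the cluster with the highest WT level had the smallest KO difference. The same held for Nr6a1os only in part, with 42.0 CPM and a ratio of 1.26 in cluster 25 but a lower ratio of 1.12 in cluster 8 at 32.0 CPM.

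In the 9 inhibitory clusters the KO mean was above the WT mean in 9 of 9 for Slc9a9, Nr6a1os, Adamts6 and Abcg2. KO was wholly above WT in 7 clusters for Slc9a9, 6 for Nr6a1os, 5 for Abcg2 and 3 for Adamts6. The share of all genes with KO wholly above WT was not computed within clusters, of neurons or of progenitors. Such counts are therefore descriptions, and in neurons they use the values that chose the genes. Slc9a9 had ratios of 1.1 to 2.01, the highest in cluster 21 (Bnc2, Stk32a), from 79.1 to 159 CPM, followed by 1.75 in cluster 0 (Nxph2, Maf) and 1.68 in cluster 11 (Prox1, Adarb2). Cluster 27, led by Gbx1 and Lhx8, had the highest ratios for Adamts6 (2.73, from 11.3 to 30.8 CPM) and Nr6a1os (1.87, from 77.4 to 145 CPM). Abtb2 was above WT in 8 of 9 clusters but without overlap in 2. Ttc23 split, with ratios between 0.442 in cluster 11 and 1.43 in cluster 5, and Rnf220 was above WT in 3 of 9. In the 7 clusters of the progenitor classes the median ratios of the 8 genes lay between 0.97 and 1.07. Ratios in single clusters ran from 0.748 for Rnf220 to 1.46 for Abcg2 and Slc9a9. KO was wholly above WT in 2 of these clusters for Ttc23, 1 for Abtb2 and none for the other 6 genes.

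**Figure D3:**
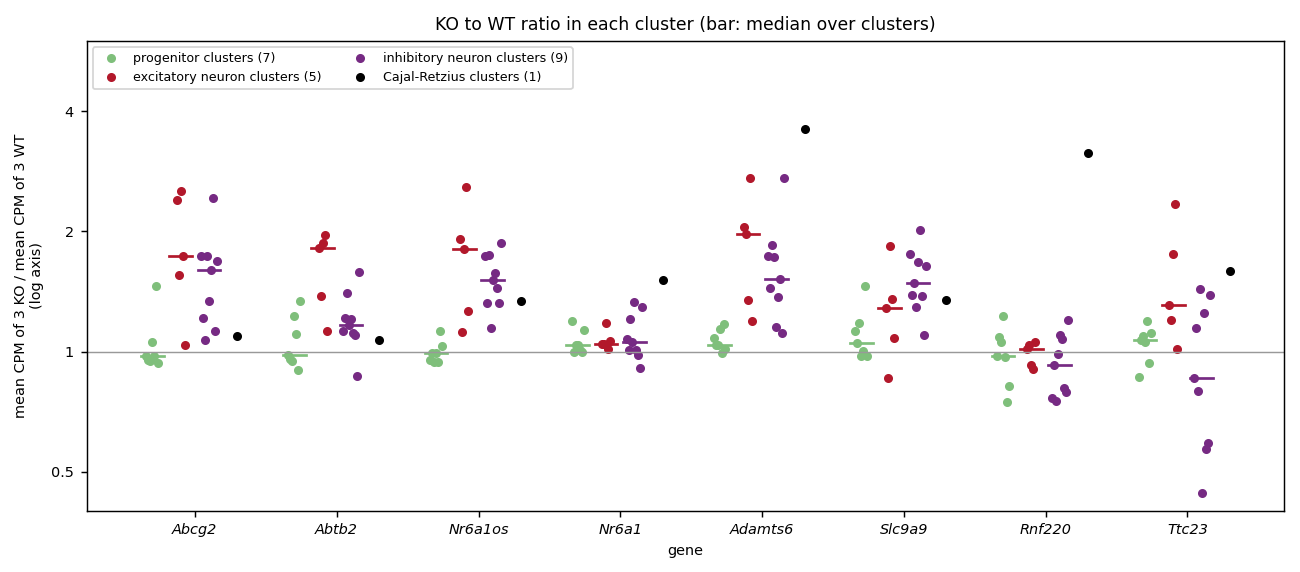
Ratio of the KO mean to the WT mean (log axis) of each gene in each cluster of the named classes, 1 point per cluster, with a bar at the median of progenitor, excitatory and inhibitory clusters and a grey line at equal levels. The medians of progenitor clusters lie between 0.97 and 1.07, with single clusters from 0.748 to 1.46. Adamts6 reaches 2.73 in an excitatory and in an inhibitory cluster and 3.60 in the Cajal-Retzius cluster.

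Among nuclei that had no class name, cluster 3 is given as a description. It held 1150 nuclei (at least 76 per animal), was led by Il1rapl2, Unc13c and Nr4a2, and took no name under the marker rule. It was picked for high values, since single animals there exceeded 3 times the highest WT animal. The share of all genes with KO wholly above WT was not computed for this cluster. Over 6 unnamed clusters the median ratios of KO to WT were 1.56 for Adamts6, 1.59 for Nr6a1os and 1.19 for Abtb2. They were 1.35 for Slc9a9 and 1.23 for Ttc23, and cluster 3 had the highest ratio for each of these genes. For Abcg2 the median was 1.26, and another unnamed cluster was higher than cluster 3. With so few nuclei, WT levels of a few CPM rest on few UMIs. Adamts6 had 8.32 to 20.3 CPM in WT and 37.9 to 69.5 in KO (3.91 times by the means). Nr6a1os had 9.39 to 13.3 CPM in WT and 29.8 to 68.9 in KO (3.91 times), and Abtb2 7.04 to 11.1 and 27.9 to 39.7 (3.51 times). Slc9a9 had 26.6 to 55.9 CPM in WT and 100.4 to 160 in KO (3.05 times), Ttc23 was at 4.44 and 18.2 CPM by the means (4.10 times) and Abcg2 at 21.3 and 46.2 (2.17 times). The difference between this cluster and the named classes was not tested. Nr6a1 (1.34 times) and Rnf220 (1.22 times) overlapped there.

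Progenitors gave the test that the choice of genes did not use, since they are other nuclei of the same animals. Myt1l RNA was lower there than in neurons but not absent, with WT means of 62.5 CPM in radial glia, 181 in excitatory intermediate progenitors and 314 in inhibitory progenitors. None of the 8 genes was called between KO and WT in radial glia, excitatory intermediate progenitors or inhibitory progenitors by edgeR, with or without the block, or by DESeq2. Without the block the lowest edgeR adjusted p was 0.997, and 1 gene, Ttc23 in radial glia (0.14 ± 0.07), had an unadjusted p under 0.05 (0.0485). With the block the lowest edgeR adjusted p was 0.741, and Ttc23 in radial glia and Adamts6 in excitatory intermediate progenitors (0.18 ± 0.08) had unadjusted p-values under 0.05 (0.0312 and 0.0272). Adamts6 in radial glia was at 396, 381 and 410 CPM in Het, 419, 401 and 372 in KO and 388, 368 and 391 in WT, with all genotypes overlapping, and its KO difference was 0.07 ± 0.06. Nr6a1os in radial glia differed by -0.04 ± 0.07 and Abcg2 by -0.05 ± 0.11. The SE of these differences in radial glia was 0.06 to 0.13 for all 8. In excitatory intermediate progenitors the largest difference was that of Abtb2 (0.31 ± 0.17), with 18.5 to 21.3 CPM in KO above 12.2 to 17.2 in WT, and Ttc23 had 82.5 to 96.6 CPM in KO above 80.0 to 81.7 in WT (0.13 ± 0.10). Genes with KO wholly above WT numbered 1 of 8 in radial glia, 2 in excitatory intermediate progenitors and 0 in inhibitory progenitors, against 3.15%, 3.9% and 3.47% of all genes. Of all 16876, 13572 and 11999 genes tested in the 3 classes, 0 (0%) were called by edgeR or DESeq2 and 7 with the block, and 2.38%, 3.92% and 2.58% had an unadjusted p under 0.05. The median log2 difference of the 8 was 0.05, 0.12 and 0.06, against 0.00, 0.00 and 0.01 over all genes.

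Het against WT asked what the loss of 1 allele did. The WT neuron values are among those that chose the genes, so in neurons this contrast is given as a description and nothing is read from its counts beside the shares of all genes. Over all genes none was called in any class (0%) with edgeR or DESeq2, and 6 were with the block. The median difference of the 8 was 0.23 in excitatory neurons, 0.16 in inhibitory neurons and 0.19 in Cajal-Retzius cells, where the medians over all genes were within 0.01 of 0. Abcg2, Nr6a1os and Adamts6 in excitatory neurons, Nr6a1os and Slc9a9 in inhibitory neurons and Rnf220 in Cajal-Retzius cells had all Het animals above all WT animals, that is 3, 2 and 1 of 8, beside 4.12%, 2.86% and 4.34% of all genes. Among these the Het difference was 0.54 ± 0.12 for Rnf220 in Cajal-Retzius cells. In excitatory neurons it was 0.30 ± 0.13 for Adamts6, 0.29 ± 0.09 for Abcg2 and 0.28 ± 0.09 for Nr6a1os, and in inhibitory neurons 0.28 ± 0.08 for Nr6a1os and 0.21 ± 0.07 for Slc9a9. Of all genes 3.39%, 1.86% and 3.61% had an unadjusted p under 0.05 in the 3 neuron classes. In the progenitor classes, which the choice did not use, the medians were 0.01 to 0.05. There the Het animals lay wholly above WT for 0 of the 8 in radial glia, 1 (Ttc23) in excitatory intermediate progenitors and 0 in inhibitory progenitors, against 3.23%, 3.67% and 3.65% of all genes, and none of the 8 was called by edgeR or had an unadjusted p under 0.05, against 1.77%, 2.73% and 2.63%.

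KO against Het asked what the loss of the remaining allele added. The KO neuron values chose the genes, which favours a difference in this contrast too, so in neurons it is described without a test and the shares of all genes are given only as background. In excitatory neurons the log2 difference was 0.63 ± 0.08 for Abcg2, 0.50 ± 0.08 for Nr6a1os, 0.49 ± 0.10 for Abtb2 and 0.46 ± 0.13 for Adamts6. In Cajal-Retzius cells it was 1.11 ± 0.11 for Rnf220 and 1.22 ± 0.18 for Adamts6. KO lay wholly above Het for 5, 4 and 4 of the 8 in excitatory neurons, inhibitory neurons and Cajal-Retzius cells. Of all genes 4.82%, 3.17% and 6.25% did so, 0.0103%, 0% and 0.0685% were called, and 5.15%, 2.59% and 6.73% had an unadjusted p under 0.05. In radial glia, excitatory intermediate progenitors and inhibitory progenitors no gene of the 8 was called by edgeR or had an unadjusted p under 0.05 (1.76%, 2.65% and 2.79% of all genes), and KO lay wholly above Het for 0, 1 (Abtb2) and 0 of them (2.67%, 3.55% and 3.8%).

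On a scale that places WT at 0 and KO at 1, computed from log2(CPM + 1), the Het mean had a median position of 0.32 over the 17 pairs of gene and neuron class in which the log2 difference between KO and WT was above 0.2. The 3 Het animals gave medians of 0.26, 0.32 and 0.35. Both ends of the scale come from the choice of the genes, and the position was not tested against a midpoint. Single pairs ran from -0.30 for Ttc23 and -0.29 for Nr6a1os, both in Cajal-Retzius cells and with the Het mean below WT, to 0.56 for Slc9a9 in the same class. Counts are low in that class, where Ttc23 had 25 UMIs in WT, 25 in Het animals and 48 in KO. Single Het animals there ran from -1.28 to 1.33 for Nr6a1os and from -0.26 to 1.42 for Slc9a9. In excitatory neurons the pairs ran from 0.20 for Slc9a9 to 0.39 for Adamts6, and in inhibitory neurons from 0.12 for Abcg2 to 0.43 for Nr6a1os. Myt1l itself was at 0.51 in excitatory neurons and 0.50 in inhibitory neurons.

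Rnf220 had one further feature, which belonged to a single animal. In inhibitory neurons Het 1 had 89.8 CPM where the other Het animals had 28.8 and 30.3 and all 8 other animals lay within 28.8 to 33.3. Without cluster 21 Het 1 had 37.8 CPM in that class, and the others 27.7 to 33.9. In cluster 21 Het 1 had 319 CPM against 15.6 to 37.6 in the other 8 animals. In cluster 10, an unnamed cluster led by Car10, Samd3 and Ntng1, Het 1 had 2464 CPM against 22.3 to 38.9, and the high value was present in run 1 (3355 CPM) and run 2 (2302 CPM). The 5 diencephalic markers Tcf7l2, Lhx9, Gbx2, Shox2 and Slc17a6 summed to 1694 CPM in cluster 10 of Het 1 and to 448 to 620 in the others, with Tcf7l2 at 1093 against 85.2 to 191 CPM, and Het 1 gave 1902 nuclei to the cluster where the other animals gave 299 to 894. Of 29 clusters with at least 20 nuclei in each animal, Het 1 was the highest of 9 animals for Rnf220 in 16 and for the marker sum in 17, and was more than 3 times the highest other animal for Rnf220 in 2. The part of these markers in the Rnf220 values was not tested. The Het difference of Rnf220 in inhibitory neurons (0.60 ± 0.32) rests on this animal, whereas in Cajal-Retzius cells Het 1 had the lowest of the 3 Het values.

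**Figure D4:**
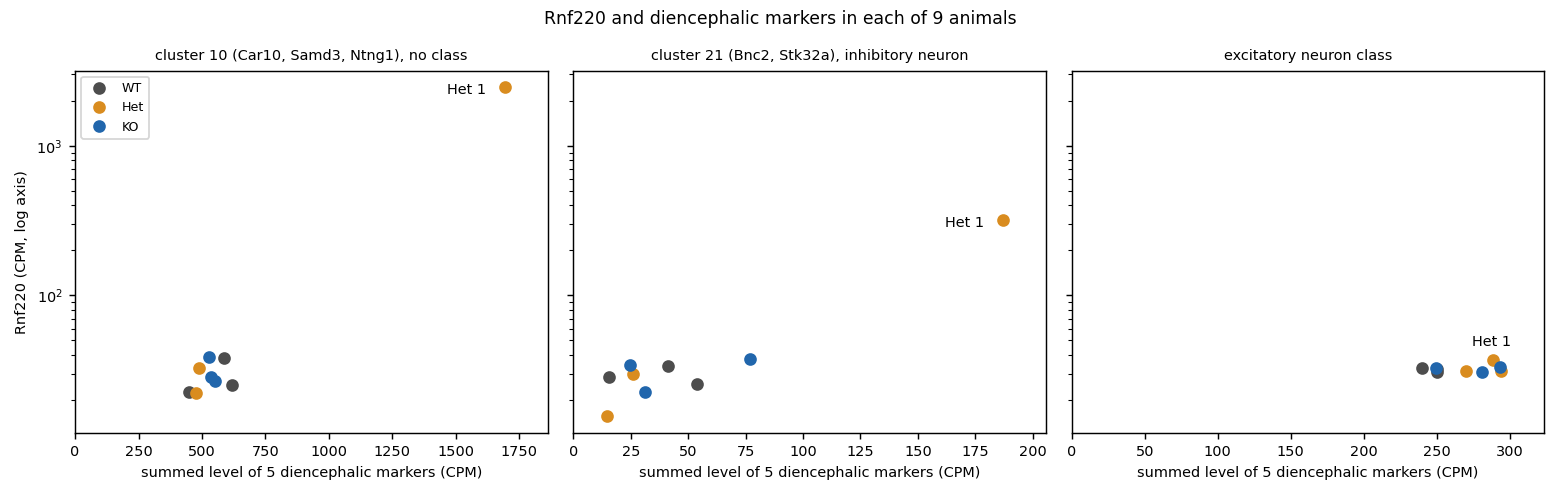
Rnf220 level (CPM, log axis) against the summed level of 5 diencephalic markers (CPM, axis scaled per panel) in each of the 9 animals, in cluster 10, in cluster 21 and in the excitatory neuron class. Het 1 lies apart in cluster 10 (2464 CPM of Rnf220) and cluster 21 (319 CPM), and has 36.8 CPM in excitatory neurons against 30.9 to 33.3 in the others.

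Nr6a1os and Nr6a1 lie on opposite strands of one locus of chromosome 2 (GRCm38). Nr6a1os occupies chr2:38823257-38852370 on the plus strand, entirely within the body of Nr6a1 at chr2:38723370-38927688 on the minus strand. Whether counting used strand is not given in the sources used, so it is not known if reads of the overlap were assigned to the right gene. Nr6a1os differed by 0.77 in excitatory neurons where Nr6a1 differed by 0.15. The RNA of 5730507A11Rik (chr2:38862163-38865533, plus strand), which also lies inside Nr6a1 and 9793 bases past the end of Nr6a1os, was called higher in KO. It had 6.55, 5.48 and 4.92 CPM in WT, 7.53, 6.17 and 5.88 in Het animals and 10.8, 7.68 and 11.1 in KO excitatory neurons, a difference of 0.83 ± 0.15 (edgeR adjusted p = 0.0304). In inhibitory neurons it differed by 0.51 ± 0.12 (adjusted p = 0.442, and 0.009 with the block), and in radial glia by -0.06 ± 0.12. The call was lost without WT 1, 2 or 3, KO 1 or KO 3 (0.74 to 0.92).

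Between Nr6a1os and 5730507A11Rik, on the same strand, lie the hairpins of miR-181a-2 and miR-181b-2, which start 365 and 1460 bases past the annotated end of Nr6a1os. The libraries do not measure mature miRNAs. On the opposite strand Gm44144 spans the miR-181b-2 hairpin, and its RNA differed by 0.12 ± 0.18 between KO and WT excitatory neurons. The miRNA sequences are shown because the same-strand RNA on each side of them was higher in KO excitatory neurons. Both 5p products share the seed, bases 2 to 8, given in capitals (RefSeq, GRCm38.p6, at chr2:38852741-38852763 and chr2:38853845-38853868).
miR-181a-5p: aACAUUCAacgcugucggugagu
miR-181b-5p: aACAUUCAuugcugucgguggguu

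**Figure D5:**
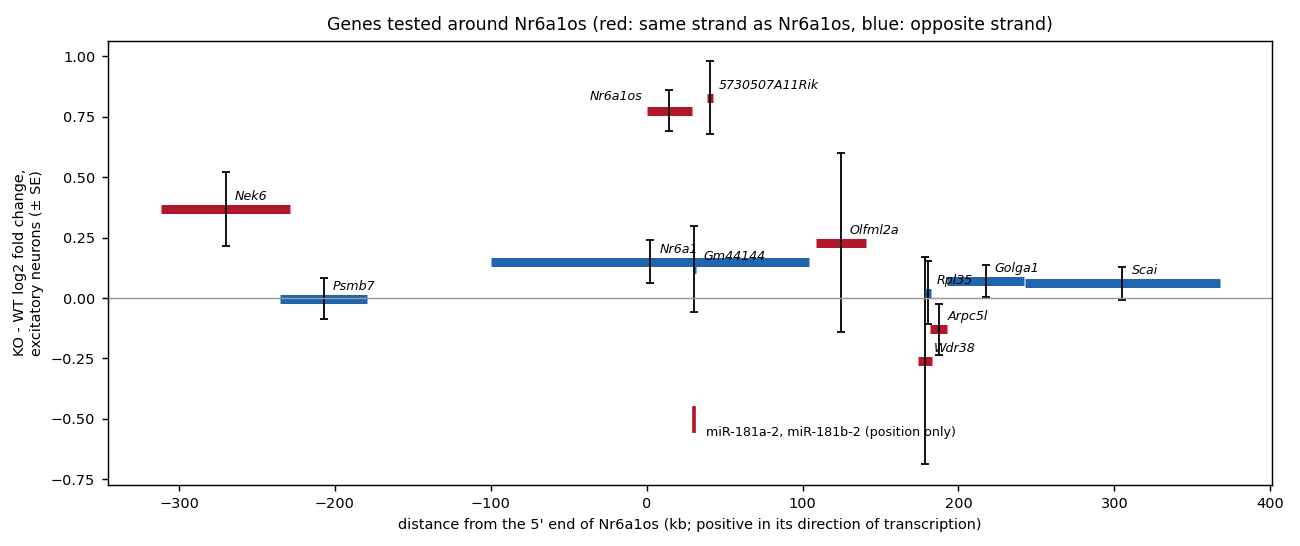
Genes tested around Nr6a1os, drawn as bars from start to end (x axis, kb from the 5′ end of Nr6a1os) at their log2 fold change between KO and WT in excitatory neurons (y axis, with its standard error), red on the strand of Nr6a1os and blue on the opposite strand. Nr6a1os (0.77) and 5730507A11Rik (0.83) have the highest values, Nr6a1 is at 0.15, and the miR-181 hairpins are marked by position only.

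Within 200 kb of the 8 gene bodies the annotation holds 115 other genes, of which 37 were tested in excitatory neurons, 35 in inhibitory neurons and 21 in Cajal-Retzius cells. In excitatory neurons 1 was called higher (5730507A11Rik) and 1 lower in KO by edgeR, 2 of 37, and in the other classes none was. Of all genes 0.635% were called in excitatory neurons in either direction. Both called neighbours lie inside the body of a member, so their count is not read against that share. With the block 2 were called higher and 2 lower in excitatory neurons and 1 higher in inhibitory neurons. The one called lower was Synm, the gene of the intermediate filament protein synemin (chr7:67730160-67759742, minus strand), which overlaps Ttc23 (chr7:67647410-67762912, plus strand). Synm fell from 2.31, 1.81 and 2.39 CPM in WT to 1.41, 1.06 and 1.47 in Het animals and 1.01, 0.91 and 1.11 in KO (-1.05 ± 0.20, edgeR adjusted p = 0.0379), the opposite direction to Ttc23, at a low level and with the same doubt about strand. Its call was lost in DESeq2 and when any animal but Het 2 was left out (-0.98 to -1.17).

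The partners of Ttc23 and Rnf220 in hedgehog signalling included genes that rose in excitatory neurons. The share of all genes called there was 0.635%, and the lists are short. They were drawn up with earlier results of these data known, so the calls are descriptions and are not read against that share. Of 4 ciliary partners of TTC23 tested, Evc, which encodes a ciliary membrane protein that conveys the hedgehog signal, was called. It had 3.77, 2.87 and 3.26 CPM in WT, 4.96, 4.60 and 3.88 in Het animals and 6.30, 5.69 and 6.22 in KO, with all genotypes apart (0.91 ± 0.14, edgeR adjusted p = 0.0137). Evc differed by 0.61 ± 0.17 in inhibitory neurons (adjusted p = 0.694) and by 1.405 ± 0.48 in Cajal-Retzius cells (adjusted p = 0.318), while its partner Evc2, at the neighbouring gene, differed by 0.31 ± 0.12 in excitatory neurons (adjusted p = 0.304). Of 7 partners and substrates of RNF220 tested in excitatory neurons, Gli2, a transcription factor of the hedgehog pathway, was called, with 25.1, 28.5 and 28.6 CPM in WT, 31.4, 37.8 and 32.2 in Het animals and 40.7, 38.7 and 37.7 in KO (0.53 ± 0.09, edgeR adjusted p = 0.0262). Gli2 was not called in inhibitory neurons (0.04 ± 0.20, adjusted p = 0.992), nor Gli3 in excitatory neurons (0.15 ± 0.10, adjusted p = 0.592). Evc was no longer called without WT 2, WT 3, KO 1 or KO 2 (0.83 to 0.94), nor Gli2 without WT 1, 2 or 3, KO 1 or KO 2 (0.46 to 0.58). In progenitors no gene of either list was called, and in radial glia Evc differed by 0.05 ± 0.09 and Gli2 by 0.01 ± 0.09. As with Ttc23, their levels were higher in radial glia than in neurons, with 33.4 CPM of Evc and 251 CPM of Gli2 in WT radial glia against 3.30 and 27.4 in WT excitatory neurons.

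No relative of the members by gene family was called. Of the 18 other ADAMTS metalloproteases 15 were tested in excitatory neurons and 1 higher and 1 lower were called with the block alone, a fit that called 1047 of all 19368 genes there. The lowest adjusted p was that of Adamts20 (-0.33 ± 0.12, edgeR adjusted p = 0.273, and 0.0177 with the block). Of the 8 other SLC9 exchangers between 4 (Cajal-Retzius cells) and 7 (inhibitory neurons) were tested in a progenitor or neuron class. None was called, with Slc9a2 at -0.61 ± 0.30 in excitatory neurons (edgeR adjusted p = 0.453). Of the 5 other ABCG transporters 3 were tested in excitatory and in inhibitory neurons, 2 in each progenitor class and 1 in Cajal-Retzius cells. None was called, with Abcg1 at 0.25 ± 0.12 (edgeR adjusted p = 0.45). The 2 other proteins of the Abtb family were tested and not called, with Abtb1 at 0.01 ± 0.15 in inhibitory neurons where Abtb2 differed by 0.26.

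Signs of progenitor RNA in neurons were looked for with marker sums, because 3 of the members were highest in radial glia. The 10 radial glia markers summed to 177 to 190 CPM in WT and 163 to 170 CPM in KO excitatory neurons, with 0 of the 10 wholly above WT in KO, and to 246 to 254 CPM in WT and 223 to 249 CPM in KO inhibitory neurons. The 6 markers of cycling cells summed to 140 to 179 CPM in WT and 116 to 145 CPM in KO excitatory neurons. The 9 microglial markers, of the cells with the most Slc9a9, summed to 7.0 to 10.5 CPM in WT and 6.3 to 9.6 CPM in KO excitatory neurons, and to 10.96 to 13.1 and 10.9 to 12.2 CPM in inhibitory neurons. In these 2 classes the sums named thus overlapped between KO and WT or were lower in KO. In Cajal-Retzius cells the radial glia markers summed to 202 to 247 CPM in WT and 178 to 268 CPM in KO, with 0 of the 10 wholly above WT, the 9 markers of excitatory intermediate progenitors to 114 to 140 and 133 to 183 CPM, with 1 of the 9 wholly above WT, and the 6 of oligodendrocyte progenitors to 1.35 to 20.5 and 11.3 to 25.9 CPM. The means of the last pair of sums were 1.19 and 1.74 times WT in KO, with overlapping ranges. The part of these markers in the members' values was not tested.

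The promoters of the genes that were higher in KO in excitatory and inhibitory neurons are shown for the ones with a RefSeq window, with AAGTT or its reverse complement AACTT, the core that MYT1-family zinc fingers bind, in capitals. A window runs from 250 bases before to 50 bases after a transcript start (RefSeq, GRCm38.p6). Of 6 members with windows, each had at least 1 window with the motif, in all 14 of 16 windows, of which 8 were overlapping windows of Nr6a1os. Of all 32851 windows 39.3% hold it, but the share of genes with at least 1 such window was not computed. Nr6a1 and Rnf220, which were not wholly higher in KO in these classes, are among the 6. The match is a description of the letters and no evidence of binding. The Abcg2 windows at the annotated start and at a start 56023 bases further in have none. Its window at a start 12149 bases in is given because it holds the motif. The windows are chr2:103566060-103566359 for Abtb2, chr9:94669642-94669941 for Slc9a9, chr2:38815722-38816021 for Nr6a1os, whose RefSeq start lies upstream of the GENCODE one, and chr6:58596422-58596721 for Abcg2, all on the plus strand.
Abtb2: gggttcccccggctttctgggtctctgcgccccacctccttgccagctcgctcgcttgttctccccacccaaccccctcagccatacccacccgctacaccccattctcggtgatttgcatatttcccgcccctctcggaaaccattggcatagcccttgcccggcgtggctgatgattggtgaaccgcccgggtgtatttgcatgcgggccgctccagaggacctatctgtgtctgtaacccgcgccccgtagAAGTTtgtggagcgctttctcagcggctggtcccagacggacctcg
Slc9a9: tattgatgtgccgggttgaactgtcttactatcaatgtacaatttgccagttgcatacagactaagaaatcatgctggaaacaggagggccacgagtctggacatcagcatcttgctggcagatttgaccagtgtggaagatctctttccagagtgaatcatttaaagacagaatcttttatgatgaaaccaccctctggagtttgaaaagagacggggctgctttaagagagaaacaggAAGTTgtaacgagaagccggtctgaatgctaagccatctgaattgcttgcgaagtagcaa
Nr6a1os: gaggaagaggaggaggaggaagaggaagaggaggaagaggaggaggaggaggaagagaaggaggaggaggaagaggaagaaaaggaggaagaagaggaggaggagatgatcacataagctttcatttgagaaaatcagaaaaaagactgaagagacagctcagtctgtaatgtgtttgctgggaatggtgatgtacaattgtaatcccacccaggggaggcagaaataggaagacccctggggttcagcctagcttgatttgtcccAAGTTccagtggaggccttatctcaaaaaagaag
Abcg2: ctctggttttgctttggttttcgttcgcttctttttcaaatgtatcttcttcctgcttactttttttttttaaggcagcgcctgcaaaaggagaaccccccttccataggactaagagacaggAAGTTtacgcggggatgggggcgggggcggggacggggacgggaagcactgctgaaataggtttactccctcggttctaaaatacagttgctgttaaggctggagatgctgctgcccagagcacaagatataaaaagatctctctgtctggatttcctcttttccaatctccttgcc

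Each gene was finally set beside the genes whose levels followed it most closely over the 63 values of 9 animals and 7 classes, by Pearson's r of log2(CPM + 1). The values share libraries and depth, and r mostly reflects cell type. The closest were Pard3b (0.93), Ston2 (0.88) and Wwtr1 (0.88) for Adamts6, Smad3 (0.89), Sall3 (0.89) and Tcf7l2 (0.88) for Nr6a1os, and Sema5a (0.87), Gldc (0.87) and Boc (0.87) for Ttc23. For Slc9a9 they were Ptbp3, Dtnbp1 and Maf (0.94 each), for Abtb2 Adcy2 (0.92), Ttc39c (0.89) and Zfp536 (0.88), and for Rnf220 Gmnc (0.90), Lhx1 (0.87) and Diablo (0.87). Gmnc and Lhx1 are leading genes of the Cajal-Retzius cluster, and by Spearman's rho they were at 0.44 and 0.39. Abcg2 was closest to Tbc1d8, Cpne3 and Ifngr2 (0.84 to 0.85). Nr6a1, the most even gene, had the loosest relatives, Pibf1 (0.71), Gm20342 (0.66) and Ppp4c (0.64). None of the 24 genes was itself a member.

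The members lie apart from each other on 6 chromosomes other than the pair at the Nr6a1 locus and Abtb2 on the same chromosome. On GRCm38 their bodies are chr6:58584523-58695676 (Abcg2), chr2:103566310-103718423 (Abtb2), chr13:104287835-104496695 (Adamts6), chr9:94669909-95230445 (Slc9a9) and chr4:117271463-117497052 (Rnf220), beside Ttc23 and the Nr6a1 pair given above. All but Nr6a1os are annotated as protein coding, and the bodies span 111154 to 560537 bases except that of Nr6a1os, with 29114.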

How the data were processed

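Single-nucleus RNA was measured in 18 libraries of E14 forebrain, 2 runs of 9 animals (3 WT, 3 Het, 3 KO), made with ScaleBio combinatorial barcoding. The authors deposited gene by barcode matrices of expected counts, of which 6.70% to 8.71% of entries per library were not whole. According to the study's methods reads were mapped to mm10 and counted with the ScaleRna workflow, and nuclei were told from background with CellFinder. The submitters' processing notes also name Seurat 4.3.0, DESeq2 1.38.3 and Scanpy 1.12.0. The annotation release and the strand setting were not given in the sources used here. The 8 genes and all gene lists were chosen with earlier results of these data known.

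Barcodes were kept if they held 800 to 6000 UMIs and 300 to 3000 genes, had no more than 1% of UMIs from mitochondria and reached 0.9 for the log of genes over the log of UMIs, and the 5% of barcodes with the highest Scrublet scores in each library were removed, because the automatic threshold marked almost none. Clustering (Scanpy 1.11.5) used 3000 variable genes without the 8 genes, Myt1l and sex-linked genes, 50 components, 20 neighbours and Leiden resolution 1. Clusters took a class name from marker lists, by a naming rule settled after the clusters were seen, and needed at least 3 detected markers.

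Counts were summed per animal and class over both runs, rounded, and tested with edgeR where each animal had 20 or more nuclei of the class (edgeR 4.0.16, R 4.3.3, filterByExpr, TMM, quasi-likelihood test, two-sided) with genotype as the only term over 9 animals and Benjamini-Hochberg adjustment within a class. A call needed an adjusted p under 0.05 and a log2 difference beyond 0.2. An animal is the replicate. Het against WT and KO against Het share animals with the contrast that chose the genes, so in neurons their values for the 8 genes are descriptions. Alternatives were DESeq2 1.42.0, RLE scaling, no filter on low counts, the replicate number as a block, the 6 animals compared, each animal left out, each run alone, no upper limits, no doublet removal and Leiden resolution 0.5. The tests were tried on simulated data. In 5 classes deviations from the genotype mean correlated between animals of the same number (0.143 to 0.696 over all pairs, 9 of 9 animals best with their own number), so the numbers pair the animals there. In Cajal-Retzius cells the range was 0.0309 to 0.230, and 9 of 9 animals were also best with their own number. Animals of different numbers reached 0.0882 there, which overlaps that range. The pairing is seen in the data, and the labels do not say what a number marks. All SEs, and the calls given without mention of the block, come from the fit with genotype alone, which leaves this pairing out. An SE here is the absolute log2 difference over the square root of the test's F value, with the spread estimated over all 9 animals. Positions are those of GENCODE vM21 (GRCm38), in which 54587 of 55335 identifiers matched. The genes named as most alike were the 3 with the highest Pearson's r among genes of at least 20 CPM. Of neighbours and lists, those called or with the lowest adjusted p were named.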

Additional observations from a re-analysis of the deposited data

Results flagged for a closer look

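Rnf220 and Ttc23 lay on opposite sides of WT in KO in different classes, with every KO animal on one side of every WT animal in each class named here. The ratio of the KO mean to the WT mean of Rnf220 was 0.910 in inhibitory neurons and 3.14 in Cajal-Retzius cells. For Ttc23 it was 0.923 in inhibitory neurons, 1.1 in radial glia, 1.09 in excitatory intermediate progenitors and 1.44 in excitatory neurons. In inhibitory neurons both differences were smaller than their SE (-0.11 ± 0.33 for Rnf220 and -0.09 ± 0.11 for Ttc23), and KO overlapped WT in each run alone. The fit that gave these SEs includes the Het animals, with Het 1 at 89.8 CPM of Rnf220. The share of all genes with KO wholly below WT was not computed. The differences between classes were not tested.

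In nuclei of 2 unnamed clusters, which enter no test between genotypes, single animals exceeded 3 times the highest WT animal. In cluster 3 the highest Het animal had 33.8 CPM of Abtb2 and the highest KO animal 39.7 CPM, and the highest KO animals had 68.9 CPM of Nr6a1os and 69.5 CPM of Adamts6. In cluster 10 the highest Het animal, Het 1, had 2464 CPM of Rnf220.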

How the results depend on the processing

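None of the 8 genes was called between KO and WT in progenitors under any alternative run. In the 2 contrasts with Het the WT or KO neuron values chose the genes, so the counts of calls among the 8 are given as values of the planned fits and test nothing about these genes. Between Het and WT 0 became 1 without the filter on low counts. Between KO and Het 3, all in neurons, became 9 without the filter, 8 with the replicate number as a block, 5 with DESeq2, 0 in run 1 alone and 1 to 2 with an animal left out (lowest without Het 2). Over all genes, KO against WT in progenitors gave 0 calls, and 48 without the filter, 7 with the replicate block and 1 in run 1. Het against WT gave 0, and 161 without the filter, 6 with the block and 0 to 4 with an animal left out (4 without WT 3). KO against Het gave 8, and 233 without the filter, 150 with the block, 1 in run 1, 15 without upper limits, 48 with DESeq2 and 1 to 24 with an animal left out (24 without KO 1).

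In excitatory neurons the 123 genes called between KO and WT became 623 without the filter, 1047 with the block, 47 in the fit of the 6 animals, 0 in run 1, 261 with DESeq2 and 20 to 219 with an animal left out (219 without KO 3). In inhibitory neurons the 2 became 95, 124, 0, 0 and 23 in the same order, 4 in run 2 and 0 to 2 with an animal left out. In Cajal-Retzius cells the 21 became 105 without the filter, 68 with the block, 50 without upper limits, 38 with DESeq2 and 4 to 35 with an animal left out (4 without WT 1, 35 without KO 1). The 2 neighbours called became 5 with the block, 0 in the fit of 6 animals, 0 in run 1, 1 with DESeq2 and 0 to 2 with an animal left out. The 2 list genes became 4 with the block, 0 in run 1 and 0 to 2 with an animal left out.

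The 17 pairs of gene and neuron class with a KO difference above 0.2 became 9 in run 1, where Cajal-Retzius cells were too few to fit, and 17 to 19 with an animal left out. The Het position of 0.32 became 0.38 in run 1 and 0.30 to 0.35 with an animal left out. WT levels in run 1 were 60.5 CPM for Abcg2, 17.1 for Nr6a1 and 1618 for Slc9a9 in microglia, 193 for Nr6a1os, 359 for Adamts6 and 105 for Ttc23 in radial glia and 116 for Rnf220 in Cajal-Retzius cells. Nr6a1 in microglia was 227 CPM in run 2, and at Leiden resolution 0.5 Adamts6 was 421 and Ttc23 98.3 CPM in radial glia. No called value changed sign, and 169 of 2074 values that were not called did. The causes were not tested. Run 1 holds fewer nuclei. Among the tested classes microglia and Cajal-Retzius cells had the fewest, with 21 and 142 in the smallest animal.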
